A study of Mus musculus with 5 samples.

Results

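The interferon-induced gene families are the protein-coding genes whose symbols begin like those of the families that interferon switches on (Ifi, Ifit, Ifitm, Irf, Stat, Isg, Oas, Gbp, Igtp, Irgm, Parp, Trim, Slfn) or match single antiviral genes such as Zbp1, Bst2 and Rsad2. The name rule found 76 genes among the 1489 in the expression table, of which 1323 are protein-coding. It used no expression value, and 3 more rows with such names but another biotype (Slfn10-ps, Oas1b and Mx2) were left out. RNA was sequenced from RAW264.7 cells, a mouse monocyte/macrophage line grown in culture, in 5 libraries. They comprised 1 library of cells given lipopolysaccharide (LPS) together with the anti-inflammatory compound (LPS + compound 13), 2 of cells given LPS alone (the LPS model) and 2 of control cells given phosphate-buffered saline (PBS). Compound 13 is 5-chloro-6-hydroxymellein, a fungal metabolite. In the study's culture experiments LPS was given at 0.1 μg/ml and compounds at up to 10 μM for 24 h. The sequenced cells were also collected after 24 h, but their doses are not stated separately. All 5 libraries come from this 1 cell line, and the control cells carry no allele or agent beyond it as far as the labels say. The label of the first library names no compound, so its identity rests on the study's methods. No source used here says that the libraries came from separate cultures, so the p-values below reflect how far libraries of a group differed, and that difference could be purely technical.

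LPS, from the outer wall of Gram-negative bacteria, is sensed by the macrophage receptor TLR4, and 1 arm of its signalling runs through the transcription factor IRF3 to interferon beta. Secreted interferon acts back on the same cells through the kinases JAK1 and TYK2, which assemble a complex with STAT2 and IRF9 that binds the interferon-stimulated response element (ISRE) in front of many antiviral genes. Interferon gamma acts chiefly through another element, the gamma-activated sequence (GAS). The genes switched on this way bind foreign RNA and DNA, block the entry and exit of viruses, halt translation, attack vacuoles that hold bacteria, and tune the response itself.

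The 5 libraries had similar depths, between 16173153 and 17145500 reads, recovered from the values. The table is a selection, and the sources used here do not give its rule; most of its genes differ between LPS and control. The share called over all 1053 genes tested is therefore given beside the count of members called in each comparison. A gene was tested if it reached an FPKM of 1 (fragments per kilobase of exon, scaled to library depth) in at least 2 libraries, or in the 1 library of LPS + compound 13. Of the 76 members, 68 did, 13 of them with both control libraries below that level, so that their being tested depended on the cells given LPS. All 6 genes set as markers of the interferon response (Irf7, Isg15, Ifit3, Ifi204, Zbp1 and Bst2) were listed and higher with LPS than in control cells. They are members themselves, and 72.7% of all genes tested were called higher. Of 10 macrophage markers 3 were listed. Of these, 2 were called higher with LPS than in control cells, and 1 was called lower with compound 13 than in control cells. Cd14, 1 of the 3, was abundant in every library, at 1396 FPKM with compound 13, 1360 and 1331 FPKM in the LPS model and 685 and 732 FPKM in control cells. Of 6 neutrophil markers 1 was listed, at 272 FPKM with compound 13, 333 FPKM in both LPS libraries and 0.870 and 2.86 FPKM in control cells. Of 5 classical dendritic cell markers 1 was listed, at 7.15 FPKM with compound 13, 7.67 and 7.52 FPKM in the LPS model and 1.28 and 1.02 FPKM in control cells. Epithelial markers were seen in the LPS model alone: 3 of 6 were listed (Krt8, Krt18 and Krt19), and their summed level was 0 with compound 13, 19.6 and 12.5 FPKM in the 2 LPS libraries and 0 in both control libraries. Fibroblast markers (3 of 6 listed) behaved likewise, summing to 0 with compound 13, 3.59 and 2.40 FPKM in the LPS libraries, and 0 and 0.0155 FPKM in the control libraries. In all, 77 genes of the table had at least 10 reads in each LPS library and at most 3 in any other library; 0 of the members are among them, and the part of these genes' source in the differences below was not tested. Reads per cell and number of cells cannot be told apart in such bulk RNA.

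The promoter sequences are shown because the response element is what many of these genes share beyond their names. RefSeq windows (build GRCm38.p6, 250 bases before to 50 bases after the start of transcription) matched 63 of the 76 members by symbol. The ISRE was searched as GAAANNGAAA on both strands (TTTCNNTTTC), and the GAS as TTCNNNGAA, which reads the same on both strands. An ISRE match lay in 36 of the 63 member windows (57.1%), against 3.99% of the 27025 genes in the whole promoter table, and 15 members held more than 1, some of which overlap. A GAS match lay in 15 of 63 (23.8%), against 9.55% of all genes. In 30 members at least 1 ISRE match lay before the start, and the first base of these 42 matches had a median position of 65 bases before it. A match is a description of letters and not of a bound site. The stretches below all lie before the RefSeq start, are written 5′ to 3′ on the strand of the gene, and have ISRE matches in capitals. That of Irgm1 lies inside the span deposited for this gene (chr11:48861968-48871683), and so after the start in that annotation. All stretches were chosen after the expression values were seen. The first 5 come from genes that were lower with compound 13 and the other 5 from genes that were not called in that comparison. They lie at chr4:156200860-156200911 (Isg15, minus strand), chr19:34583358-34583431 (Ifit3, plus), chr19:34640770-34640828 (Ifit1, plus), chr5:120777710-120777749 (Oas3, minus), chr1:173913059-173913098 (Ifi211, minus), chr1:173741826-173741865 (Ifi207, minus), chr8:71537572-71537617 (Bst2, minus), chr5:120907526-120907560 (Oas1a, minus), chr11:48871421-48871465 (Irgm1, minus) and chr11:58199507-58199546 (Igtp, plus).
Isg15: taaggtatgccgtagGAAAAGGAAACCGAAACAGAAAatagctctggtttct
Ifit3: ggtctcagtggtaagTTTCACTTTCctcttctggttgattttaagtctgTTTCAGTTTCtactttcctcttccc
Ifit1: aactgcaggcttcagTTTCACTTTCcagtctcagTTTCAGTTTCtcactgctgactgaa
Oas3: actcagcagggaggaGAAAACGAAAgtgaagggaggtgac
Ifi211: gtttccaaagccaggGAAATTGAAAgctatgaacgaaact
Ifi207: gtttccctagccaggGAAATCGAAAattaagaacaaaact
Bst2: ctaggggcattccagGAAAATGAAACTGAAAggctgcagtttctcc
Oas1a: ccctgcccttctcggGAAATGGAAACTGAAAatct
Irgm1: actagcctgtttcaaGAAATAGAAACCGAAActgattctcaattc
Igtp: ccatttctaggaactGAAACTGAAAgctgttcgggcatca

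Isg15 carries 3 ISRE matches that overlap in 1 run of GAAA repeats, and Bst2, Oas1a and Irgm1 carry an overlapping pair. Ifit3 and Ifit1 carry 2 separate matches each, both on the opposite strand. Read from the strand that gives GAAA, the form GAAACTGAAA was held by 14 members and GAAAGTGAAA by 7. The form GAAATCGAAA was held by Ddx58 and 5 genes of the Ifi20x family on chromosome 1, among them Ifi207, while Ifi211 of the same family has GAAATTGAAA. Of the 56 tested members with a window, the 30 with an ISRE match had a median log2 fold change of 1.35 for LPS model over control and -0.25 for LPS + compound 13 over LPS model. The 26 without a match had medians of 1.35 and -0.38. With compound 13, 6 of these 30 and 9 of these 26 were called lower, so calls occurred with and without the element.

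**Figure D1:**
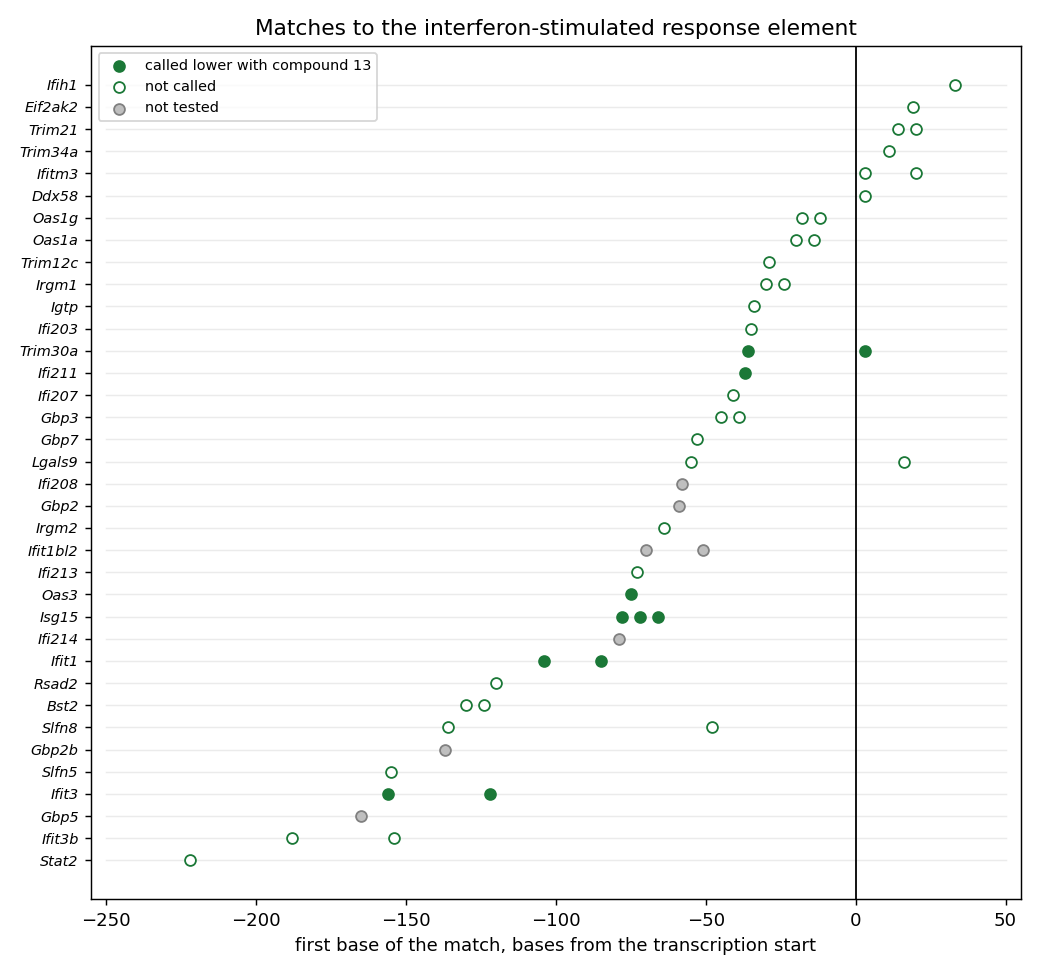
Position of each ISRE match in the promoter windows of the 36 members that hold one; the x axis gives the first base of the match in bases from the start of transcription (vertical line), and each row is 1 gene. Filled green points mark genes called lower with compound 13, open points genes not called and grey points genes not tested; the 42 matches before the start have a median position of 65 bases from it.

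The first comparison asked what LPS did to these families. Interferon-induced genes were broadly higher in the LPS model than in control cells: 66 of the 68 tested members were called higher and 2 lower (limma, Benjamini-Hochberg adjusted p below 0.05). Over all genes tested, 72.7% were called higher and 23.4% lower. The 13 members with both control libraries below the filter were tested only because of the cells given LPS. The direction of all 13 was thus largely set in advance, and no count was made without them. Among them are Zbp1, Herc6, Ifit3b, Ifitm1, Ifi209, Ifi211, Isg20, Gbp3, Gbp7, Slfn1, Trim16 and Trim34a. The members' median log2 fold change was 1.32, beside 0.96 over all genes, on the log2(FPKM + 1) scale used for every fold change here, which understates changes of low genes. Without a filter or a test, both LPS libraries lay above both control libraries in 73 of the 76 members. That count was not made over all 1489 genes. In the fit without a filter 73.3% of them were called higher, beside 96.1% of the members. Summed over the 76 members, the level was 3185 and 3204 FPKM in the LPS libraries, against 1167 and 1235 FPKM in the control libraries. The size of these differences depends on the scaling: rescaling by the median of ratios, which sets the median gene of the selected table near 0, left 43 members higher and 13 lower, beside 40.1% and 36.9% of all genes. Quantile normalization left 45 higher and 9 lower, beside 42.1% and 33.0%. The members' median stood above that of all genes by 0.36 as deposited, by 0.39 after the first rescaling and by 0.41 after the second.

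Among the transcription factors, Irf7 changed most. Irf7, which amplifies the production of type I interferon, lies at chr7:141262706-141266481 and had 82.9 FPKM with compound 13, 116 and 123 FPKM in the LPS model and 8.25 and 9.01 FPKM in control cells. The groups did not overlap, and the change of LPS model over control, 3.64 ± 0.06 (SE) on the log2 scale, was the largest of any tested member (limma adjusted p = 1.4e-06). Stat2, a subunit of the complex that interferon assembles, had 10.5 FPKM with compound 13, 13.1 and 14.7 FPKM in the LPS model and 7.61 and 6.24 FPKM in control cells. Irf9, the DNA-binding subunit, had 14.0 FPKM with compound 13, 15 and 14.7 FPKM in the LPS model and 10.6 FPKM in both control libraries. Stat2 and Irf9 were called higher with LPS as deposited, by 0.92 and 0.45 log2 units, and turned negative under the rescaling by the median of ratios (Irf9 also under quantile normalization).

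The ISG15 system tags proteins with a small ubiquitin-like modifier. Isg15, the modifier, had 36.5 FPKM with compound 13, 61.7 and 57.1 FPKM in the LPS model and 5.75 and 6.57 FPKM in control cells. Its change of LPS model over control was 3.08 ± 0.08 log2 units, second to Irf7 among the members (adjusted p = 2.55e-06). Usp18, which removes the tag and also damps signalling at the interferon receptor, had 36.4 FPKM with compound 13, 44.1 and 42.8 FPKM in the LPS model and 7.14 and 7.80 FPKM in control cells, a change of 2.39 ± 0.06 for LPS model over control. Herc6, a ligase for the tag in mice, was low, at 1.56 FPKM with compound 13, 1.70 and 1.88 FPKM in the LPS model and 0.708 and 0.642 FPKM in control cells, and was called higher with LPS by 0.73 as deposited, but under neither rescaling (0.13 after the median of ratios, adjusted p = 0.22, and 0.10 after quantile normalization, adjusted p = 0.27).

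The IFIT proteins bind foreign RNA, and all 4 tested members of the family were called higher with LPS as deposited (Ifit2 negative under both rescalings). Ifit1 had 9.93 FPKM with compound 13, 16.0 and 16.3 FPKM in the LPS model and 2.55 and 2.69 FPKM in control cells. Ifit3 had 3.44 FPKM with compound 13, 7.46 and 6.87 FPKM in the LPS model and 1.80 and 1.98 FPKM in control cells. Both were higher in the LPS model, by 2.25 ± 0.06 and 1.5 ± 0.08. Ifit3b, a near copy of Ifit3, had 2.33 FPKM with compound 13, 4.07 and 4.67 FPKM in the LPS model and 0.755 and 0.497 FPKM in control cells, and since 51.2% of the 50-base stretches of Ifit3 also occur elsewhere, chiefly in Ifit3b, reads of this pair may have been split. Ifit2 stood apart from its neighbours, with 4.95 FPKM with compound 13, 6.54 and 6.94 FPKM in the LPS model and 4.86 and 4.75 FPKM in control cells. Its difference for LPS model over control was 0.42 as deposited. Ifit1bl2 stayed below the filter in every library, at 0.501 FPKM or less.

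IFITM proteins sit in membranes and block the fusion of viruses. Ifitm3 was the most abundant member in every library, with 1196 FPKM with compound 13, 1187 and 1188 FPKM in the LPS model and 532 and 581 FPKM in control cells. It was higher with LPS by 1.09 ± 0.05 as deposited, but turned negative under both rescalings. Ifitm6 had 69.5 FPKM with compound 13, 76.1 and 80.9 FPKM in the LPS model and 22.6 and 26.6 FPKM in control cells, 1.64 ± 0.08 higher in the LPS model than in control cells. Ifitm1 was seen almost only in the LPS model, with 0.213 FPKM with compound 13 (4 reads), 7.27 and 5.65 FPKM in the LPS model (132 and 100 reads), and 0 and 0.267 FPKM in control cells (0 and 5 reads). It reached the filter only through the 2 LPS libraries and so had to differ, and its difference of LPS model over control, 2.72 ± 0.17, is a description and no test. The summed epithelial markers moved the same way (0 with compound 13, 19.6 and 12.5 FPKM in the LPS model, 0 in both controls), and their part in the Ifitm1 values was not tested.

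Several enzymes of the OAS family make oligoadenylates that activate the nuclease RNase L. All 6 genes of the family were higher with LPS as deposited (Oas2 negative under the rescaling by the median of ratios). Oasl2 had 5.10 FPKM with compound 13, 9.44 and 9.80 FPKM in the LPS model and 1.01 and 1.26 FPKM in control cells, and changed most in the family, by 2.32 ± 0.08. Oasl1, known in mice to hold back translation of the Irf7 transcript, had 34.7 FPKM with compound 13, 50.9 and 51.2 FPKM in the LPS model and 13 and 13.4 FPKM in control cells. Oas3 had 35.6 FPKM with compound 13, 44.9 and 47.1 FPKM in the LPS model and 13.3 and 13.8 FPKM in control cells. Libraries of each group lay close together in this family, and the LPS and control values did not overlap. Oas1a had 86.6 FPKM with compound 13, 91.9 and 98.3 FPKM in the LPS model and 28.7 and 29.4 FPKM in control cells. It shares 57.6% of its 50-base stretches, chiefly with Oas1g, so the split of reads between these neighbours is uncertain.

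HIN-200 proteins (the Ifi20x cluster on chromosome 1) sense DNA or modulate its sensing; 6 of 7 tested were higher with LPS, and Ifi213 was lower. Ifi202b, which lacks the signalling domain and antagonises the Aim2 inflammasome, had 32.7 FPKM with compound 13, 41.9 and 44.7 FPKM in the LPS model and 4.98 and 4.55 FPKM in control cells, a change of 2.94 ± 0.06 for LPS model over control. Ifi204, a DNA sensor, had 3.11 FPKM with compound 13, 6.55 and 6.81 FPKM in the LPS model and 1.42 and 1.18 FPKM in control cells. Ifi207 was expressed at 37.4 FPKM with compound 13, 43.7 and 45.3 FPKM in the LPS model and 15.1 and 13.4 FPKM in control cells. These 3 genes shared a direction with LPS and differed in how far the compound 13 library lay from the LPS libraries. Ifi209 was low, at 1.64 FPKM with compound 13, 2.87 and 2.51 FPKM in the LPS model and 0.238 and 0.396 FPKM in control cells. Ifi213, named because it was 1 of only 2 lower members, had 1.59 FPKM with compound 13, 1.74 and 1.68 FPKM in the LPS model and 2.59 and 2.31 FPKM in control cells, a change of -0.35 ± 0.08 (adjusted p = 0.00866). The call of Ifi213 and that of the other lower member, Ifi27l2a, rest on few libraries: 1, 1 and 0 members were called lower without control replicate 1, LPS replicate 1 and LPS replicate 2.

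The nucleic acid sensors were all higher with LPS (5 of 5 tested as deposited; the kinase Eif2ak2, named for this alone, was negative under the rescaling by the median of ratios). Zbp1, which recognises the left-handed Z form of nucleic acids and can start necroptosis, had 5.98 FPKM with compound 13, 11.4 and 11.7 FPKM in the LPS model and 0.975 and 0.795 FPKM in control cells. Its LPS libraries stood 13-fold above the control mean in FPKM, a change of 2.74 ± 0.08. Both control libraries of Zbp1 lay below the filter, so its direction was largely set in advance. The RNA helicase Ddx58 (RIG-I) had 22.4 FPKM with compound 13, 27.0 and 26.8 FPKM in the LPS model and 7.75 and 7.41 FPKM in control cells. Ifih1 (MDA5) had 9.64 FPKM with compound 13, 11.7 and 12.8 FPKM in the LPS model and 3.33 and 2.82 FPKM in control cells. Dhx58 (LGP2), a helicase that tunes the other two, had 11.2 FPKM with compound 13, 14.6 and 15.1 FPKM in the LPS model and 5.05 and 5.41 FPKM in control cells.

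Immunity-related and guanylate-binding GTPases act on vacuoles that hold pathogens. Of 10, 6 were tested and all 6 called higher with LPS as deposited, with a median of 1.18 (Irgm2 was negative under the rescaling by the median of ratios and Ifi47 under both). Gbp7 and Gbp3 were below the filter in both control libraries, so the direction of these genes was largely set in advance. Irgm1 had 22.0 FPKM with compound 13, 26.9 and 28.1 FPKM in the LPS model and 9.40 and 8.68 FPKM in control cells. Igtp had 7.38 FPKM with compound 13, 8.73 and 8.38 FPKM in the LPS model and 2.72 and 3.12 FPKM in control cells. These autophagy-linked GTPases kept LPS and control apart without overlap. Gbp7 had 1.4 FPKM with compound 13, 2.24 and 2.39 FPKM in the LPS model and 0.516 and 0.396 FPKM in control cells. Gbp3 had 2.02 FPKM with compound 13, 2.57 and 2.58 FPKM in the LPS model and 0.462 and 0.716 FPKM in control cells. Gbp2, Gbp2b, Gbp5 and Gbp9 stayed below the filter, with at most 1.2 FPKM in any library. Ifi47, a further GTPase of the family, had 3.28 FPKM with compound 13, 3.41 and 2.63 FPKM in the LPS model and 1.93 and 2.22 FPKM in control cells, and its small change (0.38 ± 0.12, adjusted p = 0.0271) was negative under both rescalings.

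Schlafen genes regulate growth and differentiation of immune cells, and all 5 were called higher with LPS as deposited (Slfn8 negative under the rescaling by the median of ratios, Slfn2 under quantile normalization). Slfn4 had 70.2 FPKM with compound 13, 99.7 and 106 FPKM in the LPS model and 28.3 and 26.5 FPKM in control cells. Slfn2 had 143 FPKM with compound 13, 161 and 163 FPKM in the LPS model and 59.7 and 58.0 FPKM in control cells. Slfn1 was seen only in cells given LPS, at 1.38 FPKM with compound 13 and 2.13 and 2.36 FPKM in the LPS model, with 0 reads in both control libraries. Set against a floor of 3 reads over the control group, it was at least 46.9-fold higher in the LPS model. Slfn5 had 8.63 FPKM with compound 13, 11.2 and 10.8 FPKM in the LPS model and 3.59 and 3.39 FPKM in control cells.

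PARP and TRIM genes had median changes of 1.03 and 0.77 for LPS model over control as deposited, and both medians were slightly negative under the rescaling by the median of ratios. Of the ADP-ribosyltransferases, Parp14 had 19.5 FPKM with compound 13, 24.3 and 25.9 FPKM in the LPS model and 7.79 and 7.71 FPKM in control cells, a change of 1.58 ± 0.05 for LPS model over control. Parp9, its binding partner and neighbour on chromosome 16, had 18.6 FPKM with compound 13, 21.6 and 21.4 FPKM in the LPS model and 10.3 and 9.78 FPKM in control cells. Parp10 had 11.8 FPKM with compound 13, 13.6 FPKM in both LPS libraries and 6 and 6.33 FPKM in control cells. Parp12 had 34.5 FPKM with compound 13, 39.6 and 41.5 FPKM in the LPS model and 20.8 FPKM in both control libraries. All 4 were called higher as deposited, but Parp9, Parp10 and Parp12 turned slightly negative under the rescaling by the median of ratios, and Parp12 also under quantile normalization. Among TRIM ubiquitin ligases, Trim30a, which restrains Toll-like receptor signalling in mice, had 26.9 FPKM with compound 13, 34.2 and 35.1 FPKM in the LPS model and 8.55 and 8.40 FPKM in control cells. The other 7 tested TRIM genes were called higher as deposited by 0.47 to 0.98, but Pml, Trim12c, Trim21 and Trim46 were negative under both rescalings. Trim16 had 2.55 FPKM with compound 13, 2.78 and 2.82 FPKM in the LPS model and 0.872 and 0.986 FPKM in control cells. The near copies Trim34a and Trim34b, with 1.51 and 1.99 FPKM with compound 13, up to 1.91 and 2.54 FPKM in the LPS model and up to 0.541 and 1.14 FPKM in control cells, share 39.8% and 56.8% of their 50-base stretches. Trim30c stayed below the filter.

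Of the remaining effectors, Bst2 (tetherin), which holds budding viruses on the cell surface, had 319 FPKM with compound 13, 333 and 313 FPKM in the LPS model and 71.2 and 80.5 FPKM in control cells. Its change of LPS model over control was 2.08 ± 0.07. Rtp4 had 47.0 FPKM with compound 13, 51.4 and 50.1 FPKM in the LPS model and 15.1 and 13.3 FPKM in control cells. Xaf1, an antagonist of the apoptosis inhibitor XIAP, had 9.39 FPKM with compound 13, 11.3 and 12.2 FPKM in the LPS model and 2.91 and 3.14 FPKM in control cells. All 3 had LPS libraries well clear of both control libraries. Isg20, an RNA exonuclease, had 1.82 FPKM with compound 13, 3.63 and 3.29 FPKM in the LPS model and 0.974 and 0.754 FPKM in control cells. Ifi44l had 14.8 FPKM with compound 13, 23.8 and 25.8 FPKM in the LPS model and 6.4 and 6.12 FPKM in control cells. Its neighbour Ifi44 had 26.0 FPKM with compound 13, 36.7 and 38 FPKM in the LPS model and 10.3 and 10.03 FPKM in control cells. In these 3 the compound 13 library lay below both LPS libraries and above both control libraries. Lgals9 (galectin-9) had 44.8 FPKM with compound 13, 50.7 and 49.2 FPKM in the LPS model and 12.8 and 14.4 FPKM in control cells. Ifi35 had 11.9 FPKM with compound 13, 13.1 and 12.2 FPKM in the LPS model and 6.99 and 7.21 FPKM in control cells, and was negative under both rescalings. Ifi27l2a ran the other way, with 47.9 FPKM with compound 13, 56.1 and 53.0 FPKM in the LPS model and 63.9 and 77.3 FPKM in control cells, a change of -0.36 ± 0.10 (adjusted p = 0.0145).

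**Figure D2:**
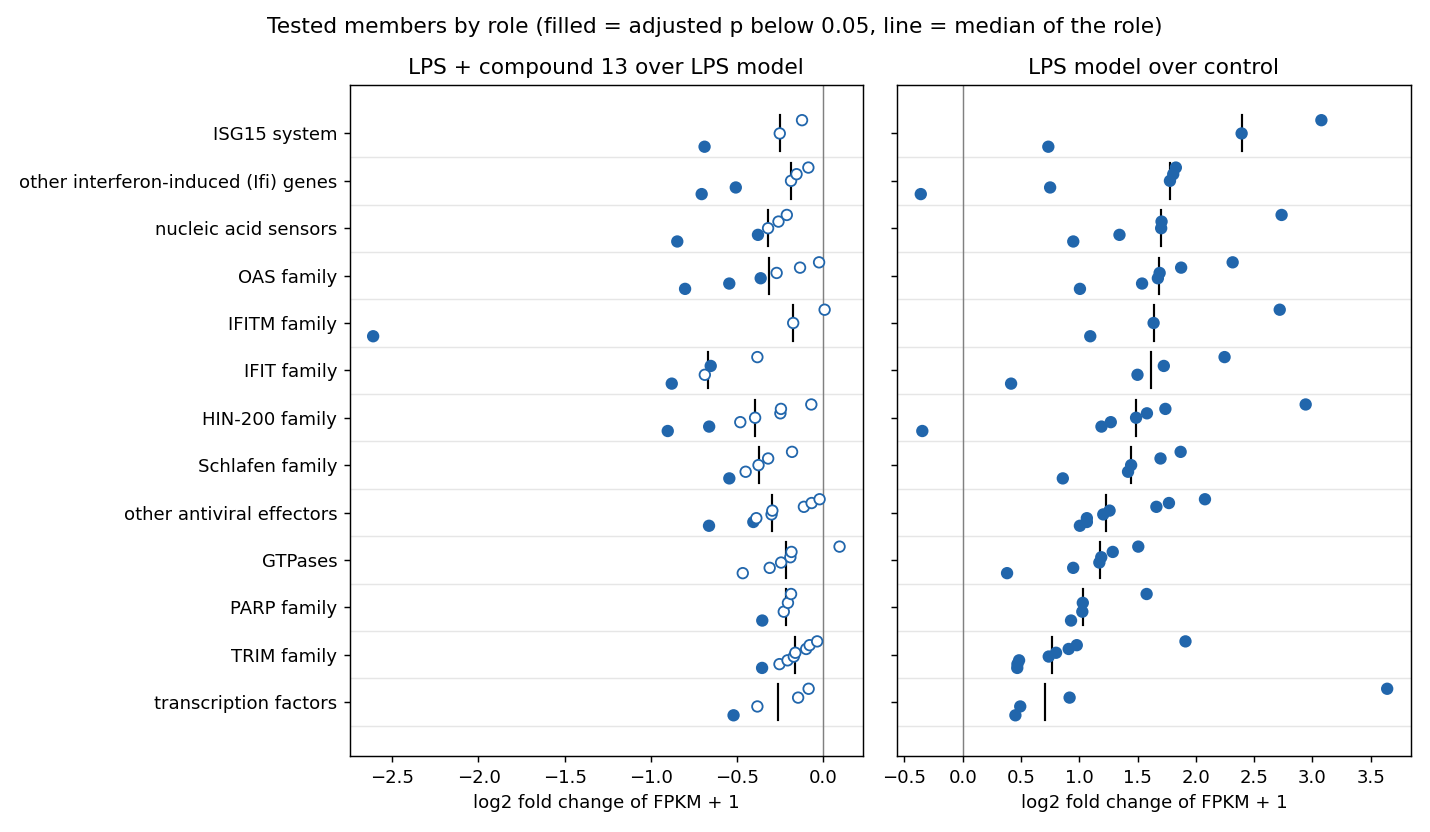
Log2 fold change of FPKM + 1 for the 68 tested members, grouped by role (rows), for LPS + compound 13 over LPS model (left) and LPS model over control (right). Each point is 1 gene, filled where the limma adjusted p was below 0.05, and the short vertical line is the median of the role. On the right all points but 2 lie above 0, and on the left all but 2 lie below 0. Over all genes tested (not drawn), 25.2% were negative on the right and 73.0% on the left.

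The second comparison asked whether the compound changed the response. With compound 13, 19 of the 68 tested members were called lower than in the LPS model and 0 higher (limma, all 5 libraries in 1 fit). Over all genes tested 7.22% were called lower and 0.38% higher. A further 24 members were lower at an unadjusted p below 0.05 and 0 higher (over all genes 21.7% were lower at that level, called genes included). With limma-voom on recovered reads, 35 of 76 were called lower and 0 higher, beside 19.4% and 0.94% of all genes. The differences were small, and the members' median was -0.26 beside -0.08 over all genes. A negative value was found in 66 of 68 members, beside 73.0% of all genes tested. In 70 of 76 members the compound 13 library lay below both LPS libraries, a count that was not made over all genes. The members' summed level was 2854 FPKM with compound 13, against 3185 and 3204 FPKM in the LPS libraries. The call of single genes rests on both LPS libraries and on the scaling. Without LPS replicate 1, and likewise without LPS replicate 2, 0 members were called by limma, with 31 and 28 at an unadjusted p below 0.05 in either direction, beside 18.3% and 16.3% of all genes. After rescaling by the median of ratios or quantile normalization 0 were called (0.19% and 0.38% of all genes lower), with 26 and 25 at an unadjusted p below 0.05, beside 20.3% and 20.8% of all genes. The members' median stayed below that of all genes, by -0.18 as deposited, -0.16 and -0.17 under these rescalings. Since 1 library carries the compound, its own spread is not known and was taken to equal that of the other groups.

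Of the 6 markers, which are themselves members, 5 were called lower with compound 13 and 1, Bst2, was not. These calls are part of the 19 among 68 tested members, beside 7.22% of all genes, and 0 members were called under either rescaling. The markers were set with earlier results of these data known, so their calls are no separate support. Ifi204 stood at 3.11 FPKM, against 6.55 and 6.81 FPKM in the LPS model, a change of -0.90 ± 0.10 (adjusted p = 0.019). Ifit3 changed by -0.88 ± 0.09 and Zbp1 by -0.85 ± 0.09 (adjusted p = 0.019 for both). Isg15 changed by -0.69 ± 0.09 (adjusted p = 0.0253), and Irf7 by -0.52 ± 0.07 (adjusted p = 0.0267). Over the alternatives tried, the adjusted p ran up to 0.21 for Irf7 and 0.19 for Isg15, with every value negative. Bst2 had 319 FPKM, between the 333 and 313 FPKM of the LPS libraries, a difference of -0.02 ± 0.08 (adjusted p = 0.91). Its ratio of reads, compound 13 over LPS model, was 0.986 with a 95% interval from 0.953 to 1.02, which covers counting error only.

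**Figure D3:**
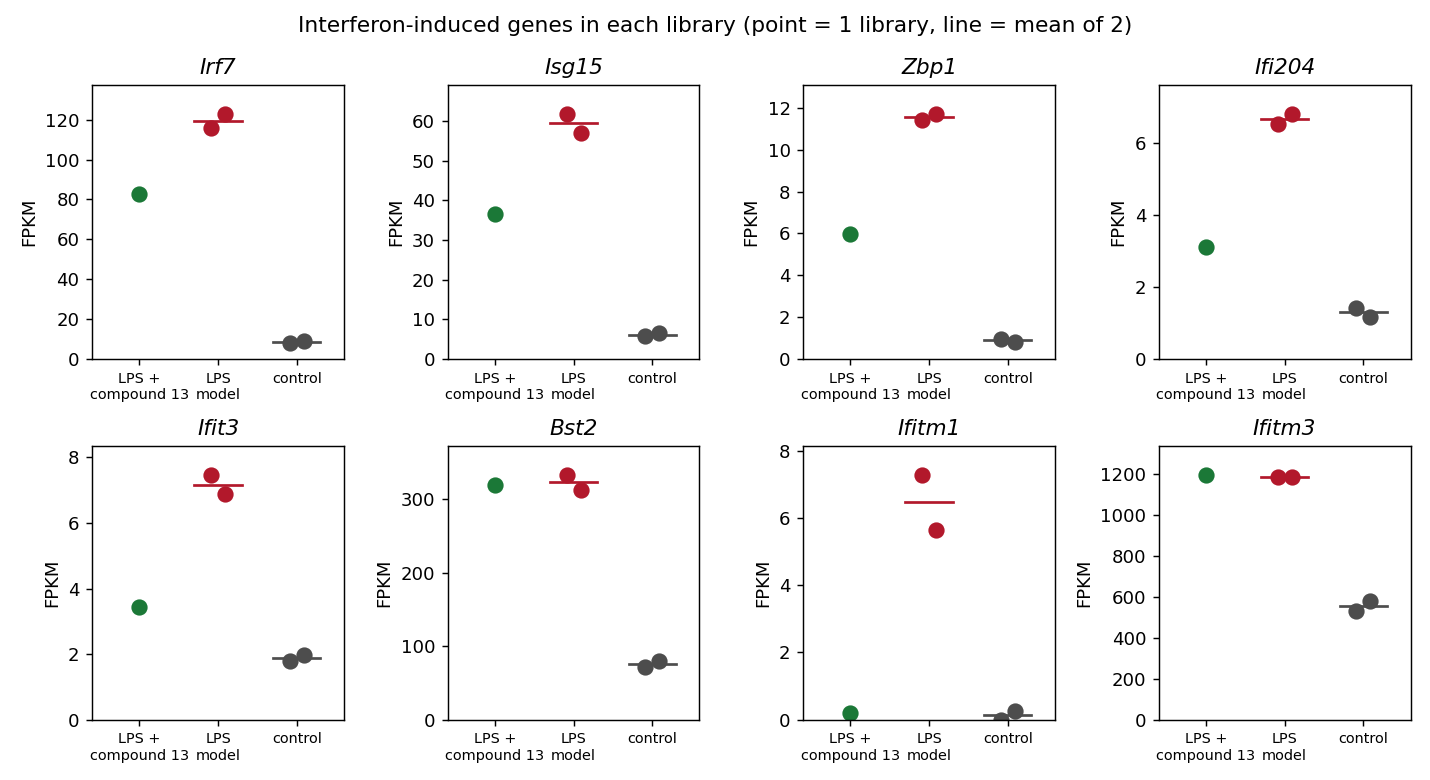
FPKM of the 6 interferon response markers and of Ifitm1 and Ifitm3 in each library, by group (LPS + compound 13, LPS model, control). Each point is 1 library and each line the mean of 2 libraries, with axes starting at 0; Bst2 and Ifitm3 lie level with the LPS model in the compound 13 library, and the other 6 genes lie below both LPS libraries.

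All 6 OAS and all 4 tested IFIT genes had negative values with compound 13 as deposited (Oas2 positive under both rescalings and Oas1a under quantile normalization), and differences between members of a family were not tested. In the OAS family, Oasl2 (-0.80 ± 0.10), Oasl1 (-0.54 ± 0.05) and Oas3 (-0.36 ± 0.06) were called lower with compound 13. Oas2, chosen after its values were seen, had 38 FPKM with compound 13 against 38.5 and 38.7 FPKM in the LPS model, and its read ratio of 0.985 had an interval from 0.941 to 1.03. Oas2 and Oas3 are neighbours in 1 cluster on chromosome 5. In the IFIT cluster on chromosome 19 the values ran from -0.88 to -0.38, and Ifit1 (-0.65 ± 0.07) and Ifit3 were called. Ifit3b (-0.69 ± 0.14) and Ifit2 (-0.38 ± 0.08) missed the threshold, with adjusted p-values of 0.0559 and 0.0566. The sign of all 4 IFIT values held under both rescalings.

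In the HIN-200 family all 7 tested values were negative as deposited, from -0.90 to -0.07 (Ifi213 positive under both rescalings). Ifi204 and Ifi211 (-0.66 ± 0.09, adjusted p = 0.0253) were called lower. Ifi211, named because it was called, had 1.80 FPKM with compound 13, 3.38 and 3.46 FPKM in the LPS model and 0.845 and 0.819 FPKM in control cells, and shares 72.8% of its 50-base stretches, chiefly with Ifi205, so its reads are uncertain. Ifi202b lay just outside the threshold (-0.39 ± 0.08, adjusted p = 0.0503), and the value for Ifi207 was -0.24 ± 0.08 (adjusted p = 0.16). The promoters of Ifi211 and Ifi207 printed above both hold 1 ISRE match close to the start.

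The remaining called genes, apart from Ifitm1, were of several families. Slfn4 (-0.54 ± 0.07), Ifi44l (-0.70 ± 0.08), Ifi44 (-0.51 ± 0.06), Isg20 (-0.66 ± 0.12), Trim30a (-0.35 ± 0.06), Parp14 (-0.35 ± 0.07), Dhx58 (-0.38 ± 0.07) and Samd9l (-0.40 ± 0.08) were lower with compound 13. Samd9l, a translation inhibitor named because it was called, had 17.7 FPKM with compound 13, 23.8 FPKM in both LPS libraries and 12.0 and 10.8 FPKM in control cells. Of the GTPases 0 of 6 were called, with Gbp7 lowest at -0.46 ± 0.11 (adjusted p = 0.072). Ifi47 had the highest value of any tested member, 0.10 ± 0.15. Ifitm3 followed at 0.01 ± 0.06, and the interval of its read ratio ran from 0.987 to 1.03.

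Ifitm1 had the lowest value of the tested members with compound 13, -2.61 ± 0.20, given as a description because only the LPS libraries carried it past the filter. It is among the 19 called lower, which are 18 without it. Its 4 reads with compound 13 against 132 and 100 reads in the LPS model gave a ratio of 0.0329 with an interval from 0.0089 to 0.0855. For Ifitm1 the compound 13 library and control cells differed by 0.11 log2 units (adjusted p = 0.63). The keratins Krt8, Krt18 and Krt19, at 0 with compound 13 and in control cells, shared this pattern, and their part in it was not tested. The other 18 called members had reads in every group.

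The 95% counting interval of the read ratio of compound 13 over LPS model lay below 1 for 56 members, across 1 for 20 and above 1 for 0. The intervals were not counted over all genes, and 73.0% of all genes tested had a negative value in this comparison. These intervals hold for the reads of these libraries and not for cultures.

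The third comparison set the compound 13 library against control cells. Of the tested members 64 were called higher with LPS + compound 13 than in control cells and 2 lower, beside 68.1% and 23.9% of all genes, and the members' median was 0.98. This comparison and the others share libraries. The 13 members with both control libraries below the filter were among those tested here too, with their direction again largely set in advance. Rescaling by the median of ratios left 28 higher (41.2% of the tested members) and 13 lower, beside 34.4% and 33.6% of all genes. Quantile normalization left 36 higher (52.9%) and 9 lower, beside 38.3% and 32.1%. Only Ifitm1 and Ifit2 of the 66 members higher with LPS were not called here as deposited, and Ifit2 at 4.95 FPKM with compound 13 lay close to its 4.86 and 4.75 FPKM in control cells. Of the 19 members called lower with compound 13 than in the LPS model, 18 were still called higher than in control cells.

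For the 66 members higher with LPS, the FPKM of the compound 13 library was expressed as a percentage of the difference between the LPS and control means, so that 100 is the LPS level and 0 the control level. The median was 69.8%, the lowest 1.26% (Ifitm1) and the highest 128% (Ifi47). In 21 members it was below 60%, in 39 between 60% and 90% and in 6 at 90% or more. Next above Ifitm1 came Ifit2 (7.36%), Ifit3 (29.5%), Ifi204 (33.7%), Isg20 (36.8%) and Ifi211 (37.3%). Among the other markers Zbp1 stood at 47.8%, Isg15 at 57.0% and Irf7 at 67.2%. At the top, Ifitm3 (101%), Bst2 (98.3%) and Oas2 (97.0%) lay close to the LPS level. For small LPS differences, such as those of Ifit2 and Ifi47, this percentage is imprecise.

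**Figure D4:**
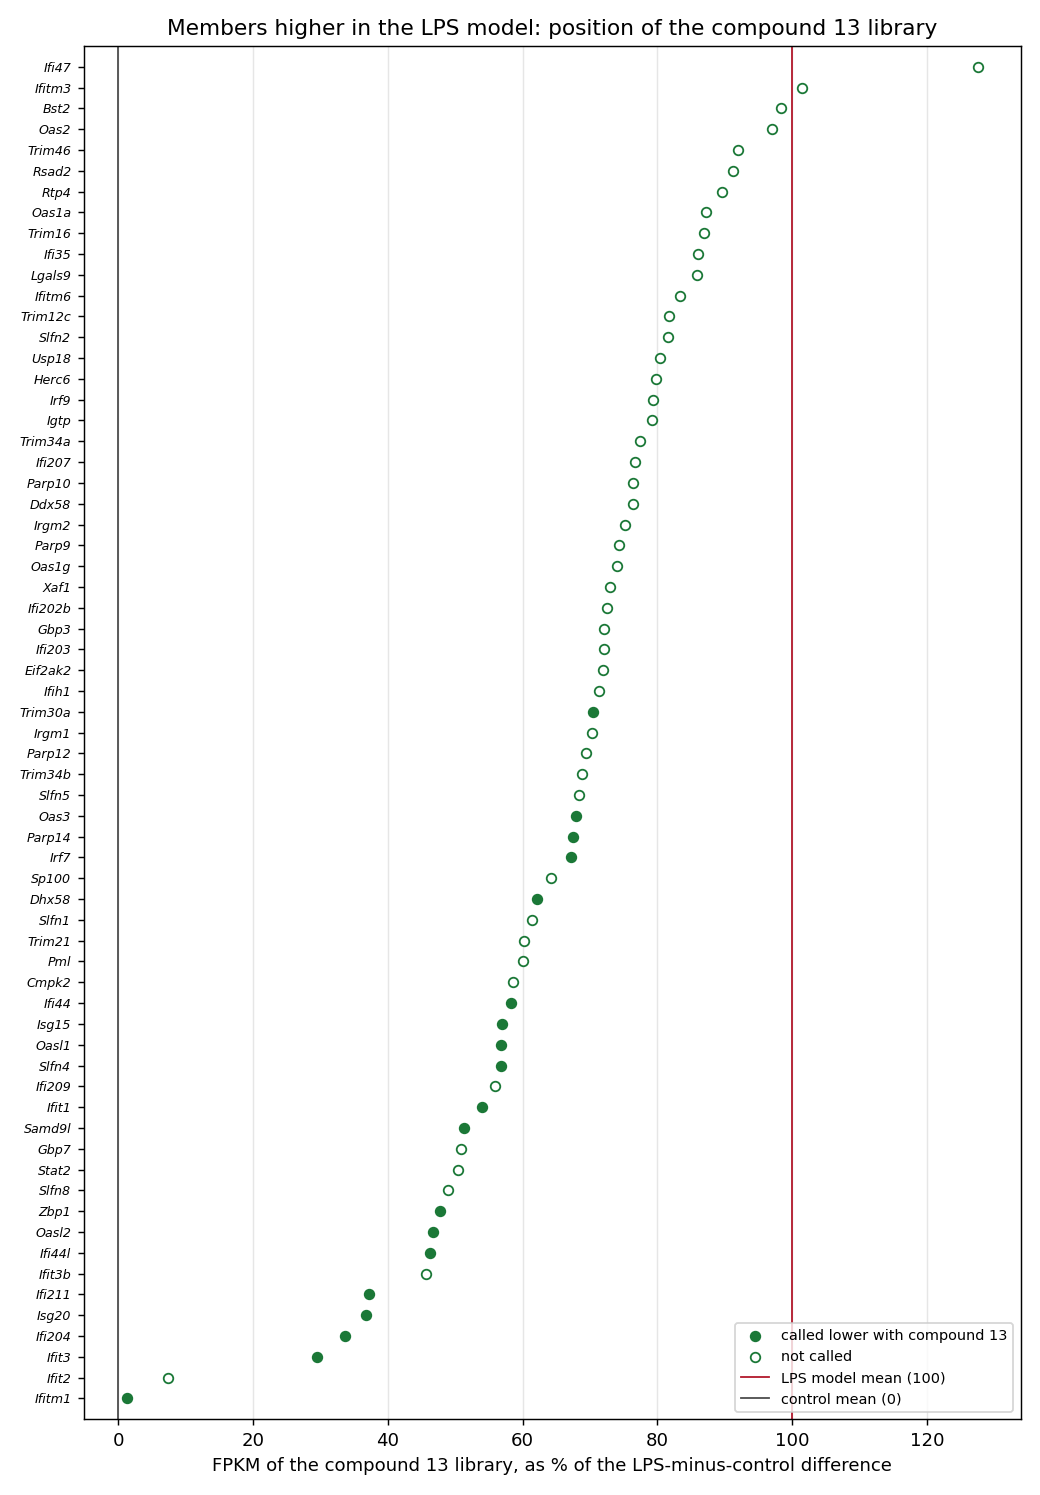
FPKM of the compound 13 library for 65 of the 66 members higher in the LPS model, as a percentage of the LPS-minus-control difference (100, LPS model mean; 0, control mean), 1 gene per row. Filled points are genes called lower with compound 13 than in the LPS model; they lie between 1.26% and 70.5%, and the median of all 66 is 69.8%.

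The other genes of the pathway were largely outside the table. Of 21 interferon ligand genes and 9 receptor and JAK kinase genes 0 were listed, so they were not analysed here. Of 17 genes that relay TLR4 or cytosolic signals to IRF3, 2 were listed, the kinase Ikbke and the RNA sensor Tlr3, and both were called higher with LPS and neither with compound 13. Ikbke had 6.22 FPKM with compound 13, 6.57 and 6.88 FPKM in the LPS model and 1.11 and 1.09 FPKM in control cells. Of 15 negative regulators 4 were listed and 3 tested (Socs1, Socs3 and Tnfaip3); all 3 were called higher with LPS and 0 with compound 13. Socs3, an inhibitor of JAK kinases, had 125 FPKM with compound 13, 131 and 136 FPKM in the LPS model and 5.97 and 6.39 FPKM in control cells. Of 75 further interferon-stimulated genes outside the name rule, 33 were listed and 30 tested, of which 27 were called higher with LPS and 3 lower with compound 13 (Tap1, Lgals3bp and Mov10, named because they were the only ones). The counts of all these lists stand beside 72.7% of all genes tested called higher with LPS and 7.22% called lower with compound 13. The largest LPS changes of the further genes, in Ccl2, Acod1 and Ccl5, were accompanied by differences of -0.03, -0.16 and -0.21 with compound 13, none of them called.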

How the data were processed

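Values deposited by the authors are log2 FPKM of 1489 genes in each library. Per the submitters' processing notes, Trimmomatic 0.32, HISAT2 2.1.0, SAMtools 1.4 and DESeq2 were used with build mm10. Not given in the sources used here are the counter, the annotation release, any use of strand in counting, and the selection of genes. An exact 0 (562 values) was read as no read counted. Reads were recovered from FPKM, exon length (GENCODE M21) and the depth at which 96.2% to 97.7% of values per library came out whole. Libraries were grouped from the labels.

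Software was limma 3.58.1 (R 4.3.3) and scipy 1.17.1 (Python 3.11.15). limma with a trended moderation was fitted to log2(FPKM + 1) of 1053 genes, with 3 groups in 1 fit, and called at a Benjamini-Hochberg adjusted p below 0.05 over all of them. Counting intervals are exact (Clopper-Pearson, 95%). The fit was run on simulated data for LPS + compound 13 over LPS model alone. All 5 libraries were drawn around the LPS mean with no LPS difference, so that run cannot check the other comparisons. Named were the 6 markers, up to 4 members per role by LPS change, up to 10 called with compound 13 by adjusted p, the 3 extremes in each direction, and up to 3 genes per pathway list; genes outside the rule are marked in the text. The members and lists were chosen with earlier results of these data known. Alternatives covered the pseudocount, filter, scaling, block, samples, moderation, limma-voom and left-out replicates. Protein sequences were not used here. The values of 1 member are in the counts and medians but are not reported here singly.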

Additional observations from a re-analysis of the deposited data

How the results depend on the processing

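With LPS, 66 members higher and 2 lower became 40 and 1 with a filter at an FPKM of 10 (fewer genes tested). They became 43 and 13 under the median of ratios, and 45 and 9 under quantile normalization. With 1 replicate left out the members' median stayed between 1.32 and 1.37, beside 0.95 to 0.97 over all genes. With compound 13 against the LPS model, 19 lower became 9 with a pseudocount of 0.1, 8 with a filter at an FPKM of 10, 0 under either rescaling, 35 with limma-voom on recovered reads, and 0 to 29 with 1 replicate left out (0 without either LPS replicate, 29 without either control replicate). Against control, 64 higher and 2 lower became 40 and 1 with the filter at an FPKM of 10. They became 28 and 13 under the median of ratios, and 36 and 9 under quantile normalization. With 1 replicate left out the members' median stayed between 0.95 and 0.98, beside 0.82 over all genes. With the filter at an FPKM of 10, 79.6% and 18.4% of all genes were called higher and lower with LPS, and 78.7% and 19.0% with compound 13 against control. The rescalings set the median gene of this selected table near 0 by construction. For the other settings the cause was not tested.

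The sign changes listed here are those of members followed singly, and other members changed sign too. Negative values were counted as deposited, under the median of ratios and under quantile normalization (shares of all genes in brackets). LPS model over control had 2, 21 and 14 among 68 tested members (25.2%, 48.3%, 41.6%). LPS + compound 13 over LPS model had 66, 57 and 51 (73.0%, 45.2%, 40.3%). LPS + compound 13 over control had 2, 24 and 18 (27.2%, 47.5%, 42.1%). Rescaling by the median of ratios reversed, for LPS model over control, Ifit2 (-0.58), Ifitm3 (-0.073), Parp9 (-0.063), Parp10 (-0.025), Parp12 (-0.20), Ifi35 (-0.31), Stat2 (-0.14), Irf9 (-0.63), Ifi47 (-0.46), Samd9l (-0.095) and Oas2 (-0.12). For LPS + compound 13 over LPS model it reversed Bst2 (0.11), Rtp4 (0.017), Ifi35 (0.035), Irf9 (0.038), Ifi213 (0.012) and Oas2 (0.10). For LPS + compound 13 over control it reversed Ifit3 (-0.13), Ifit2 (-0.84), Ifitm1 (-0.035), Parp9 (-0.14), Parp10 (-0.088), Parp12 (-0.30), Trim34b (-0.0066), Ifi35 (-0.27), Stat2 (-0.40), Irf9 (-0.59), Ifi47 (-0.28), Samd9l (-0.37) and Oas2 (-0.017). Quantile normalization reversed, for LPS model over control, Ifit2 (-0.39), Ifitm3 (-0.46), Parp12 (-0.0092), Slfn2 (-0.16), Ifi35 (-0.097), Irf9 (-0.38) and Ifi47 (-0.24). For LPS + compound 13 over LPS model it reversed Bst2 (0.076), Herc6 (0.059), Oas1a (0.010), Trim16 (0.092), Trim34a (0.026), Rtp4 (0.030), Lgals9 (0.011), Ifi35 (0.046), Irf9 (0.0095), Ifi213 (0.11) and Oas2 (0.11). For LPS + compound 13 over control it reversed Ifit2 (-0.63), Ifitm1 (-0.20), Ifitm3 (-0.46), Parp12 (-0.12), Slfn2 (-0.23), Ifi35 (-0.051), Stat2 (-0.19), Irf9 (-0.37) and Samd9l (-0.14). Leaving out a replicate reversed Bst2 (0.026, without LPS replicate 1) and Ifi47 (-0.044, without LPS replicate 2, and 0.24 without LPS replicate 1) for LPS + compound 13 over LPS model, and Ifitm1 (-0.063, without control replicate 1, and 0.28 without control replicate 2) for LPS + compound 13 over control.

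Libraries of the LPS model and control share replicate numbers, but their deviations from the group means did not go together (correlation -0.022, 1 pair of numbers). With 1 difference per group, this cannot tell whether the numbers mark shared cultures or batches. With the replicate block, 13 members were called lower with compound 13, beside 4.94% of all genes, and Bst2 was 0.0030.

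The 8 untested members had at most 100 reads in any library.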
